A study of Mus musculus with 16 samples.

Results

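The interaction between tumour genotype and cisplatin is the cisplatin response of Pros1-deficient tumours minus the cisplatin response of wild-type tumours. It was computed for each gene on log2(FPKM + 1), where FPKM is fragments per kilobase of gene length after scaling between libraries. A gene was kept when 4 or more of the 16 libraries reached 1 FPKM, which gave 12319 of the 54532 genes in the table, 10891 of them protein-coding. A value above 0 means that the response was more positive in the deficient tumours, and a value below 0 that it was more positive in the wild-type tumours.

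The tumours grew from B16F10 cells, a melanoma line from C57BL/6 mice, after subcutaneous implantation of 100000 cells in 8-week-old C57BL/6J mice of both sexes. The cells were wild-type (WT) or a derivative called BdP, which the labels give both as Pros1-deficient and as a Pros1 knockdown. The hosts were not altered in Pros1 as far as the labels state, and whether BdP is 1 clone is not given in the sources used here. From day 8 after implantation the mice received PBS or cisplatin at 5 mg/kg by intraperitoneal injection, in 2 rounds of 3 daily doses, and whole tumours were collected at the end stage. The 4 groups, WT PBS, WT cisplatin, BdP PBS and BdP cisplatin, held 4 libraries each. The labels number the replicates without saying that each came from its own mouse, so p-values measure the spread between these libraries.

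Cisplatin is a platinum drug that crosslinks DNA, stalls replication and activates the p53 pathway. Pros1 encodes protein S, a secreted anticoagulant that also activates Tyro3, Axl and Mertk, the TAM family of receptor kinases, which dampen inflammatory signalling in macrophages and dendritic cells. A tumour of this kind holds melanoma cells together with host macrophages, lymphocytes, vessels and blood, so a bulk response can come from any of them, and fewer cells of a type cannot be told apart from less RNA per cell.

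Assigned reads ranged from 10051843 to 27055771 per library, with a median of 21119708. There were 3 libraries, all WT, that stood apart in the share of reads from genes encoded in mitochondria: WT PBS 1 at 76.9%, which left 2322202 other reads, WT cisplatin 4 at 21.7% and WT cisplatin 3 at 12.2%. The remaining libraries held 2.03% to 5.06%. The haemoglobin share was highest in WT PBS 2, at 15.5%, followed by BdP cisplatin 3, at 6.46%. The melanocyte genes were present in every library, with a summed level of 5739 to 9966 FPKM. Beside the results that these 3 libraries moved most, the value without them is also given. That value rests on WT PBS 2, 3 and 4 and on WT cisplatin 1 and 2 alone. In WT cisplatin 1 and 2 the B and plasma cell genes summed to 15.9 and 17.7 FPKM, against 476 and 77.2 in WT cisplatin 3 and 4. The NF-kB and inflammatory genes summed to 116 and 296 FPKM, against 590 and 703. A shift in immune genes therefore cannot be assigned to the mitochondrial share.

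Pros1 itself matched the labels. Its level in WT PBS libraries was 9.77, 4.79, 5.89 and 5.42 FPKM, and in WT cisplatin libraries 10.4, 11.5, 7.78 and 11.4 FPKM. In BdP PBS it was 1.61, 1.59, 1.58 and 1.24 FPKM, and in BdP cisplatin 2.39, 2.21, 2.52 and 1.73 FPKM. Every BdP library lay below every WT library, and the mean was higher under cisplatin in both genotypes, by 0.62 in WT and 0.36 in BdP on the log2(FPKM + 1) scale. The interaction for Pros1 was -0.27 ± 0.24 (SE; limma adjusted p = 0.879), and -0.56 without the 3 mitochondria-rich libraries, where the WT response was 0.91.

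Across all genes tested, limma called no interaction at an adjusted p below 0.05, that is 0 genes or 0.0% of 12319. The smallest adjusted p was 0.0795. At an unadjusted p below 0.05 there were 691 genes, 5.61% of those tested, of which 299 (2.43%) had a more positive response in BdP and 392 (3.18%) a more positive response in WT. voom on the reads recovered from the FPKM called 1 gene and placed 636 at an unadjusted p below 0.05. The named genes that follow are therefore ranked and described, and none of them is a call.

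The responses measured in the 2 genotypes were weakly correlated from gene to gene. Pearson's r between the WT and the BdP response was 0.0897 across the 12319 genes, which are not independent replicates and share their libraries. The interaction lay above 0 for 6281 genes (51.0%) and below 0 for 6038 (49.0%), with a median of 0.0068 and a median SE of 0.24. From the 5th to the 95th percentile it ran from -0.61 to 0.51. Noise lowers r where responses lie near 0, so the low r does not show that the genotypes respond differently. An interaction under -1 was found for 238 genes and an interaction over 1 for 109.

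Opposite signs were as frequent as like signs, which noise around responses near 0 also gives. In 3110 genes (25.2%) the mean response was above 0 in BdP and below 0 in WT, and in 3078 (25.0%) the reverse. Requiring at least 0.5 in both genotypes left 123 genes, which were distributed unevenly: 108 (0.877%) were lower under cisplatin in BdP and higher in WT, and 15 (0.122%) were higher in BdP and lower in WT. Of these, 41 of 108 and 4 of 15 had an unadjusted interaction p below 0.05, a share that the choice of opposite responses itself raises.

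**Figure D1:**
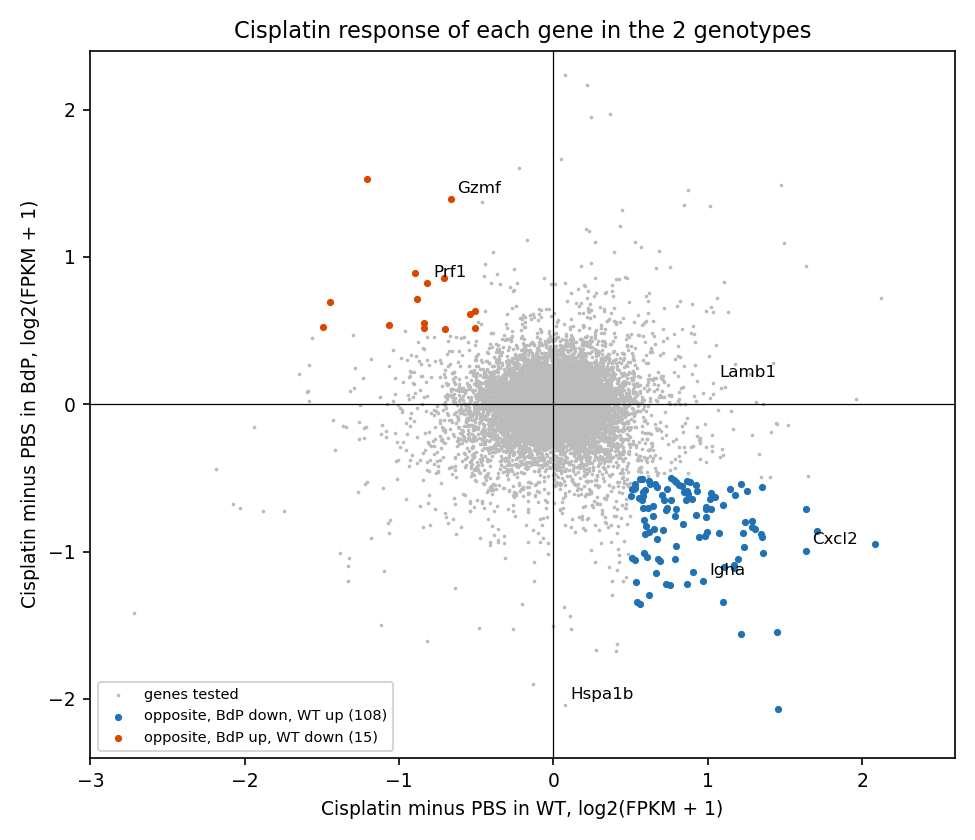
Each point is 1 gene, with the mean cisplatin response in WT tumours on the horizontal axis and in BdP tumours on the vertical axis, both as differences of log2(FPKM + 1). Blue marks the 108 genes higher under cisplatin in WT and lower in BdP by at least 0.5, orange the 15 genes of the reverse pattern, and 5 genes lie outside the axes.

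At the threshold, the members nearest to it on the inside were Igkv19-93 (0.76 in WT and -0.50 in BdP) and mt-Th (0.50 and -0.62), and those nearest on the outside were Spib (0.58 and -0.50) and Tnfrsf13c (0.57 and -0.50). In the reverse pattern, Trbv2 (-0.51 in WT and 0.63 in BdP) and Gm20186 (-0.70 and 0.51) lay just inside, and Gm6565 (-0.49 and 0.56) and Gzmb (-0.96 and 0.50) just outside.

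The 108 genes held few ordinary messenger RNAs for their number. Protein-coding genes made up 51 of them (47.2%), against 88.4% of genes tested. Immunoglobulin and T cell receptor segments made up 24 (22.2%, against 0.852%) and small RNA genes 20 (18.5%, against 1.43%). Segments of one receptor locus can be near-identical, so reads may be split between them and their values are uncertain. Of the 15 genes of the reverse pattern, 5 were protein-coding, 5 were pseudogenes and 3 were small RNA genes.

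Few of these genes kept their place when libraries were left out. Of the 108, 14 met the threshold in all 16 fits that left out 1 library, 9 met it without the 3 mitochondria-rich libraries, and 5 did both: Igha, Slc40a1, G0s2, the snoRNA Snord55 and the pseudogene AC154341.1. Of the 15, 3 met it in all 16 fits, 9 without the 3 libraries, and 1, the pseudogene Gm16199, in both. These 6 genes were singled out after their values were seen.

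A stricter description asks that the 4 PBS and the 4 cisplatin libraries do not overlap in either genotype. There were 5 genes that met this with WT higher and BdP lower under cisplatin (0.0406%): Igha, Slc40a1, Camsap3, Vars2 and the antisense RNA Gm16124. Another 4 met it in the reverse direction (0.0325%): 4930579G24Rik, Stard4, Tpgs2 and Sft2d2. Within 1 genotype alone, the groups did not overlap for 399 genes in WT (3.24%) and 544 in BdP (4.42%), in either direction. For comparison, 9 genes did not overlap in either genotype with the same direction in both. Opposite directions were thus no more frequent than like directions. With these shares some genes lack overlap in both genotypes by coincidence, so the counts are not read as an excess.

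Igha had the smallest p of all. It is the constant region of immunoglobulin A heavy chains, made by B and plasma cells, on chromosome 12 at positions 113254830 to 113260236 (GRCm38). Its level was 0, 0.0686, 0.0147 and 0 FPKM in WT PBS and 0.797, 0.75, 1.19 and 1.31 FPKM in WT cisplatin. In BdP PBS it was 2.18, 2.32, 2.04 and 2.87 FPKM, and in BdP cisplatin 0.0587, 0.764, 0.0354 and 1.32 FPKM. WT tumours were thus almost without it under PBS and uniformly positive under cisplatin, while BdP tumours were uniformly positive under PBS and lower, with a wide spread, under cisplatin. The interaction was -2.17 ± 0.32 (SE; limma adjusted p = 0.0795), from a WT response of 0.97 and a BdP response of -1.20. The level rests on few reads, from 0 to 3 in WT PBS and 41 to 66 in WT cisplatin. Without BdP cisplatin 4 the limma adjusted p was 0.0055, and over all alternatives it ran from 0.0055 to 0.885.

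Slc40a1 encodes ferroportin, the exporter of iron from cells, abundant in macrophages that recycle red cells. It lies on chromosome 1 at positions 45908068 to 45926523. Its level was 1.48, 1.33, 0.752 and 0.585 FPKM in WT PBS and 3.27, 2, 2.08 and 2.15 FPKM in WT cisplatin, against 1.31, 1.05, 1.37 and 1.18 FPKM in BdP PBS and 0.359, 0.434, 0.666 and 0.543 FPKM in BdP cisplatin. The WT libraries were higher under cisplatin without overlap, and the BdP libraries lower without overlap. The interaction was -1.31 ± 0.23 (SE; limma adjusted p = 0.31), and -1.51 without the 3 mitochondria-rich libraries. This was the gene that voom called, at an adjusted p of 0.0197. Haemoglobin genes, which mark blood, also differed between these groups: the erythroid list had a median response of -3.04 in WT and -2.34 in BdP, both below 0, and its part in the Slc40a1 values was not tested.

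Camsap3 encodes a protein that binds the minus ends of microtubules. It was at 2.26, 1.02, 1.72 and 1.59 FPKM in WT PBS and 3.88, 2.71, 6.05 and 6.51 FPKM in WT cisplatin. In BdP it was at 0.584, 0.662, 0.798 and 1.21 FPKM under PBS and 0.568, 0.362, 0.525 and 0.395 FPKM under cisplatin. The WT difference (1.09) was the larger part of the interaction of -1.39 ± 0.30 (SE; limma adjusted p = 0.486), and the BdP difference was -0.30.

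Gm16124, an antisense RNA, had an interaction of -1.01 ± 0.22 (SE; limma adjusted p = 0.486), with at most 51 reads in any library. Reads of an antisense gene and of its partner cannot be told apart without strand. Vars2, the mitochondrial valyl-tRNA synthetase, had a smaller interaction of -0.55 ± 0.19 (SE; limma adjusted p = 0.835). Its WT part leans on WT PBS 1, at 2.44 FPKM against 4.43 to 4.61 in the other WT PBS libraries.

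Among the genes of the reverse direction, 4930579G24Rik, a protein-coding gene of no assigned role on chromosome 3, had the smallest p. It was at 7.28, 7.19, 6.12 and 6.01 FPKM in WT PBS and 5.25, 4.72, 5.05 and 4.93 FPKM in WT cisplatin. In BdP it was at 3.27, 3.64, 3.72 and 3.58 FPKM under PBS and 4.37, 4.14, 4.65 and 5.15 FPKM under cisplatin. The genotypes were well apart under PBS and overlapped under cisplatin. Its interaction was 0.64 ± 0.12 (SE; limma adjusted p = 0.395).

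Stard4 encodes a carrier of cholesterol between membranes. It was at 24.4, 12.1, 11.4 and 19.6 FPKM in WT PBS and 9.96, 9.8, 9.42 and 10.5 FPKM in WT cisplatin, and at 11, 10.8, 11.6 and 11.4 FPKM in BdP PBS against 12.4, 13.9, 13.2 and 13.2 FPKM in BdP cisplatin. The BdP values were close together and slightly higher under cisplatin, and WT PBS was the variable group. The interaction was 0.86 ± 0.25 (SE; limma adjusted p = 0.835), and 0.67 without the 3 mitochondria-rich libraries. Tpgs2, a subunit of the tubulin polyglutamylase complex, had an interaction of 0.45 and Sft2d2, a protein of vesicle traffic, one of 0.66; under TPM (transcript levels scaled to a fixed total per library) these were -0.01 and -0.14. For Sft2d2, WT PBS 1 stood at 42.7 FPKM against 15.4 to 19 in the other WT PBS libraries, and without the 3 mitochondria-rich libraries the interaction was 0.40.

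**Figure D2:**
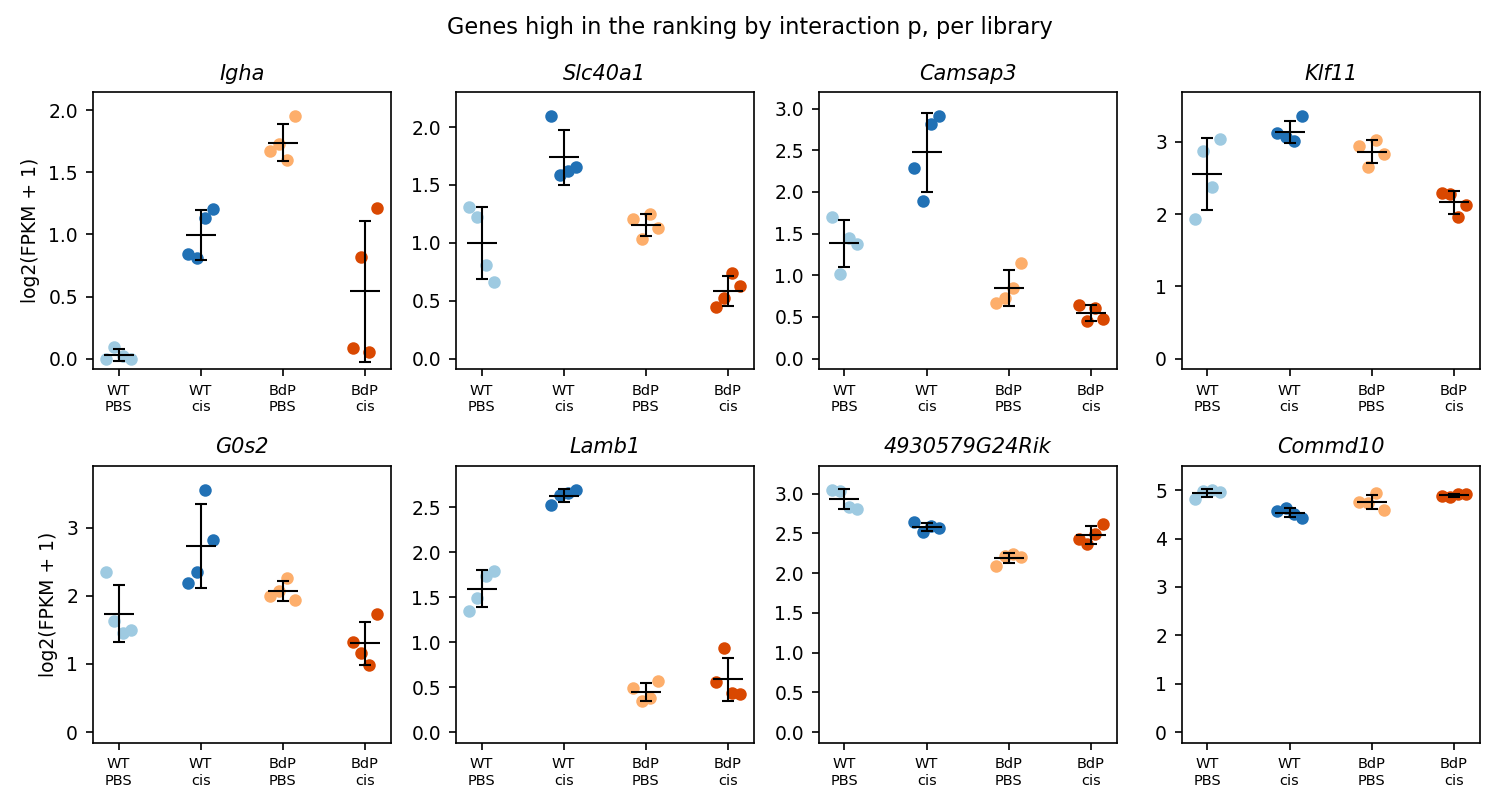
Each panel shows 1 gene on log2(FPKM + 1), with 1 point per library, a horizontal mark at the group mean and a bar of 1 SD (n = 4); cis is cisplatin. Igha, Slc40a1 and Camsap3 were higher under cisplatin in WT and lower in BdP without overlap, whereas the Lamb1 groups did not overlap in WT, overlapped in BdP and were low in every BdP library.

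Ranked by p among protein-coding genes with at least 5 FPKM in the highest group, Klf11, G0s2 and Lamb1 led those with a negative interaction. Klf11, a zinc finger factor of the TGF-beta pathway, was at 2.83, 6.32, 4.21 and 7.25 FPKM in WT PBS and 7.69, 7.4, 7.03 and 9.22 FPKM in WT cisplatin, then 6.72, 5.3, 7.14 and 6.11 FPKM in BdP PBS and 3.9, 3.86, 2.88 and 3.36 FPKM in BdP cisplatin. The BdP groups did not overlap and the WT groups did. Its interaction was -1.28 ± 0.27 (SE; limma adjusted p = 0.486). Without the 3 mitochondria-rich libraries it was -1.03, and the WT response was 0.33, against 0.58 with all libraries.

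G0s2 encodes an inhibitor of the lipase that breaks down stored fat. It was at 4.11, 2.1, 1.75 and 1.83 FPKM in WT PBS and 3.56, 4.08, 10.7 and 6.06 FPKM in WT cisplatin, and at 3, 3.2, 3.81 and 2.84 FPKM in BdP PBS against 1.51, 1.25, 0.976 and 2.31 FPKM in BdP cisplatin. WT PBS 1 was the high library of its group, and the BdP groups did not overlap. The interaction was -1.76 ± 0.38 (SE; limma adjusted p = 0.486) and -1.50 without the 3 libraries.

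Lamb1, a laminin chain of basement membranes, showed a different shape. It was at 1.55, 1.82, 2.32 and 2.46 FPKM in WT PBS and 4.74, 5.21, 5.31 and 5.46 FPKM in WT cisplatin. BdP tumours held 0.4, 0.268, 0.299 and 0.484 FPKM under PBS and 0.468, 0.906, 0.352 and 0.345 FPKM under cisplatin. The responses were 1.03 in WT and 0.14 in BdP, of like sign, and the interaction was -0.89 ± 0.20 (SE; limma adjusted p = 0.486). On this scale a low gene has little room to differ, and all BdP libraries were under 1 FPKM. With a pseudocount of 5 the limma adjusted p for Lamb1 was 0.0411.

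Other negative genes under this rule were Mitf, Rnf44, Ddah2, Cyr61, Prickle1 and Phlda1, with interactions from -1.33 for Cyr61 to -0.59 for Rnf44. Mitf, the master regulator of the melanocyte lineage, was at 44.5, 68, 60.9 and 44.5 FPKM in WT PBS and 77.3, 62.7, 83.2 and 81.8 FPKM in WT cisplatin. In BdP it was at 70.9, 55.3, 79.8 and 85.9 FPKM under PBS and 58.8, 40.8, 46.6 and 53.6 FPKM under cisplatin. The groups overlapped within both genotypes, and the interaction was -1.03 ± 0.24 (SE; limma adjusted p = 0.835). With all libraries the wider melanocyte list was divided: 8 of 17 members lay above 0 and 9 below, with a median of -0.02. Without the 3 mitochondria-rich libraries 3 members lay above 0 and 14 below, with a median of -0.096. Mlana, a melanosome antigen, had an interaction of 0.57, and 0.28 without the 3 libraries.

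On the positive side the rule named Commd10, Bdh1, Smpdl3b, Me2, Mis12, Tmem97, Cmas, Ppa1 and Hsd17b12 besides 4930579G24Rik, with interactions from 0.43 for Hsd17b12 to 0.91 for Smpdl3b. Several are enzymes: Bdh1 interconverts ketone bodies, Me2 is a mitochondrial malic enzyme, Cmas activates sialic acid and Hsd17b12 lengthens fatty acids. Commd10 was at 27.2, 30.8, 31.2 and 30.3 FPKM in WT PBS and 22.9, 23.9, 21.8 and 20.5 FPKM in WT cisplatin, and at 26.1, 25.7, 29.6 and 23.2 FPKM in BdP PBS against 28.4, 27.8, 29.3 and 29.1 FPKM in BdP cisplatin. WT libraries were lower under cisplatin without overlap, and the BdP groups overlapped. The interaction was 0.54 ± 0.12 (SE; limma adjusted p = 0.486). Without the 3 mitochondria-rich libraries Me2 was at 0.47 and Cmas at 0.38. When levels were expressed as TPM, the median interaction over all genes moved to -0.65, and Commd10 (-0.26), Me2 (-0.07) and Hsd17b12 (-0.41) lay on the other side of 0. Under TPM over genes not encoded in mitochondria the median was -0.45 and Hsd17b12 was at -0.07.

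Gene lists gave the pattern more shape, and are described by counts and medians beside all genes tested, with no test of the list. Of the 34 lists, the B and plasma cell list had the lowest median interaction, followed by NF-kB and inflammatory cytokines, immediate early genes and neutrophils. The interferon gamma list had the highest. None of these lists held a called member. Of all genes tested, 2.43% had an unadjusted limma p below 0.05 with an interaction above 0, and 3.18% with one below 0. Counts of list members at that p are to be read beside these shares. Members of a list can vary together, so such counts are not separate observations.

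**Figure D3:**
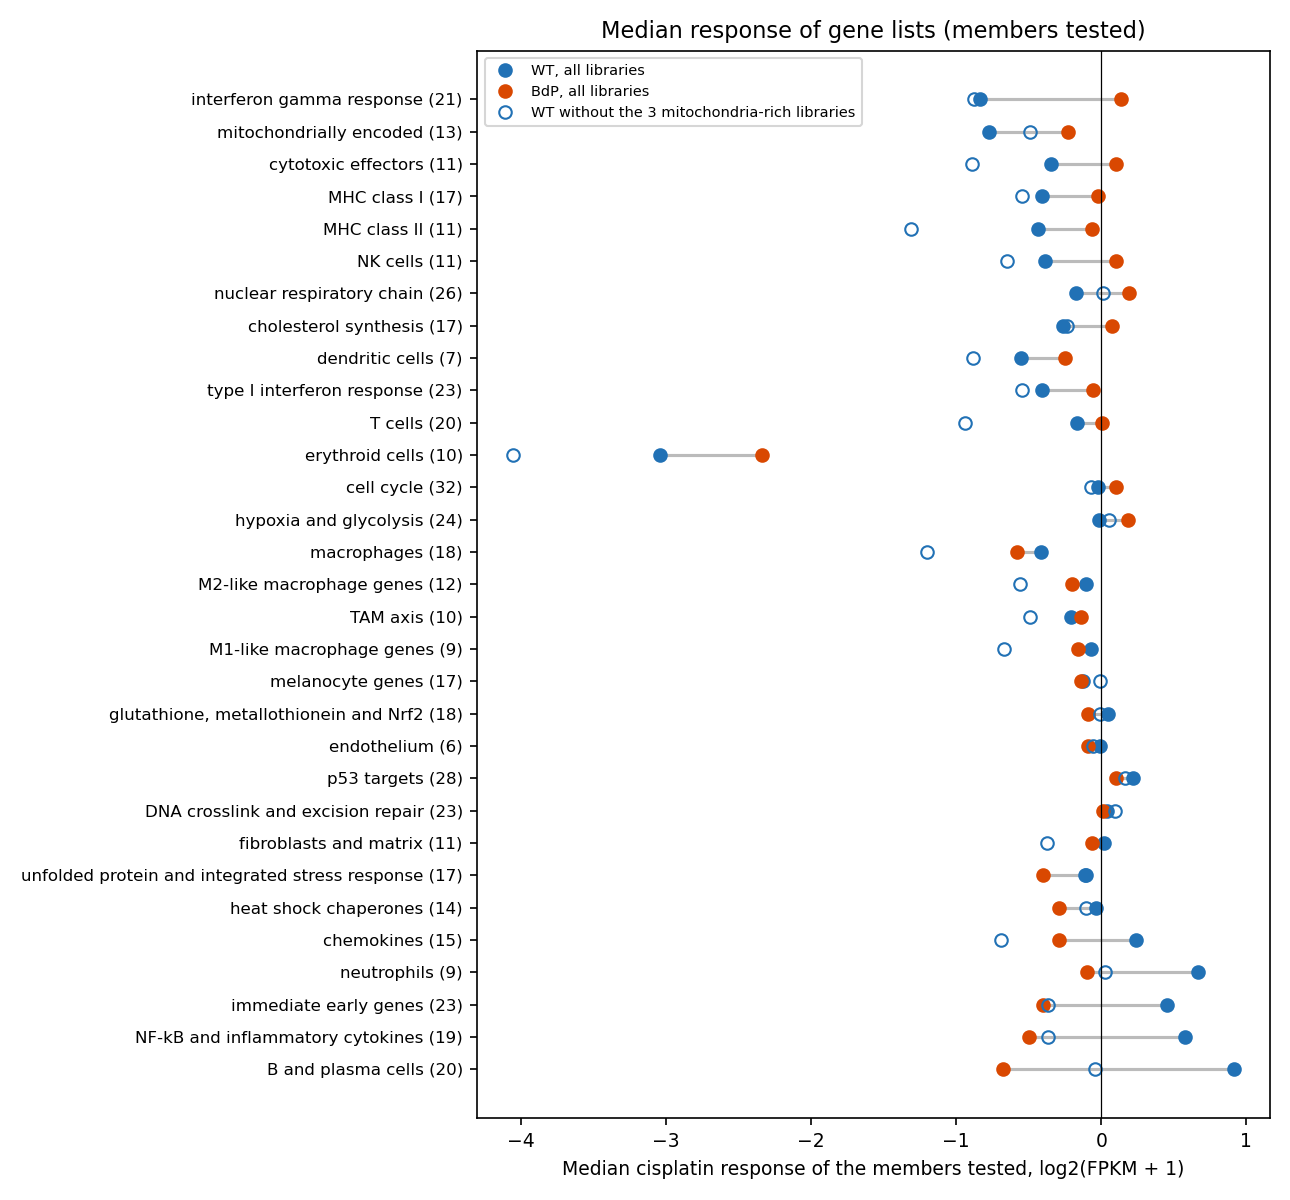
Each row is 1 gene list with at least 5 members tested (their number in parentheses), ordered by median interaction, and the horizontal axis is the median cisplatin response of its members on log2(FPKM + 1). Filled blue points are WT, orange points BdP and open blue points WT without the 3 mitochondria-rich libraries; the WT medians of the NF-kB list (0.58 and -0.37) and the immediate early list (0.45 and -0.36) lie on opposite sides of 0. Under TPM the medians of the cell cycle, cholesterol synthesis and nuclear respiratory chain lists are below 0.

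All 20 B and plasma cell genes tested had a positive mean response in WT and a negative one in BdP, where 25.0% of all genes did, and 14 of them passed 0.5 in both. The median response was 0.91 in WT and -0.68 in BdP, and the median interaction -1.65. Igkc, the kappa light chain constant region, was at 0.962, 4.59, 32.3 and 2.28 FPKM in WT PBS and 5.49, 7.98, 172 and 37.5 FPKM in WT cisplatin, and at 348, 965, 15.6 and 113 FPKM in BdP PBS against 7.72, 624, 54.5 and 151 FPKM in BdP cisplatin. WT cisplatin 3 was the highest WT library, and both BdP groups ran from low to high. Its interaction was -3.03 ± 2.06 (SE; limma adjusted p = 0.845), and -0.80 without the 3 mitochondria-rich libraries. Without those libraries, which include WT cisplatin 3, the list's WT median was -0.04 and its median interaction -0.63. Without BdP PBS 2 alone the median interaction was -0.94. The members of this list mark the same cells, so their shared sign is not 20 separate observations.

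The summed level of the list shows how far libraries differed within a group. It was 5.41 to 79.8 FPKM in WT PBS, 15.9 to 476 in WT cisplatin, 40.6 to 2289 in BdP PBS and 16.2 to 1622 in BdP cisplatin. In 14 of the 20 genes at least 1 library was at 0. Fcer2a, the low-affinity IgE receptor of B cells, and Jchain, which joins immunoglobulin subunits, had interactions of -1.76 and -1.58, with unadjusted limma p of 0.213 and 0.091, and of -0.99 and -1.03 without the 3 libraries.

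NF-kB controls the early inflammatory genes, among them the cytokines Il1a and Tnf and the neutrophil-attracting chemokines Cxcl1 and Cxcl2. All 19 members tested had an interaction below 0, against 49.0% of all genes, and 16 had a positive response in WT with a negative one in BdP. There were 3 with an unadjusted p below 0.05. The 250 bases before the starts of Cxcl1 and Cxcl2 are shown because these chemokines had the lowest interactions of the list beside Il1a, with the kappa-B motif GGGNNTTTCC (either strand) in capitals (RefSeq, GRCm38.p6, plus strand). Cxcl1 lies at chr5:90890995-90891244 and Cxcl2 at chr5:90903649-90903898.
Cxcl1: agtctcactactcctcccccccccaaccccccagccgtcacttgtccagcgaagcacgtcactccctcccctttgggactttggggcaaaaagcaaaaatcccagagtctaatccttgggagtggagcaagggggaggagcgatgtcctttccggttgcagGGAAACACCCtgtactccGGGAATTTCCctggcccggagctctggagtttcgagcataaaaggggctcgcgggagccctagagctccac
Cxcl2: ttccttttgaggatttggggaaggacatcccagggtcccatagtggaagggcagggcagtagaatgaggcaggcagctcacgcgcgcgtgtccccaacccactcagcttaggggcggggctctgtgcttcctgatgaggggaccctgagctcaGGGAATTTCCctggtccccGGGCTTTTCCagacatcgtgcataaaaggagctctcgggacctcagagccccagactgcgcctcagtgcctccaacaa
The motif was found at any start in 6 of the 15 list genes with a promoter in the table (Cxcl1, Cxcl2, Nfkb2, Nfkbia, Rel and Tnfaip3). It was found in 1.41% of all 32851 single promoters of the same length. A match describes letters and is not a bound site.

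Cxcl2 was at 5.45, 59.4, 47.6 and 12.1 FPKM in WT PBS and 19.4, 62.1, 122 and 145 FPKM in WT cisplatin. BdP tumours held 205, 52.6, 68.3 and 57.7 FPKM under PBS and 35.2, 13.2, 90 and 60.1 FPKM under cisplatin. The groups overlapped in both genotypes; the lowest WT library was WT PBS 1, the highest were WT cisplatin 3 and 4, and BdP PBS 1 stood above all others. The interaction was -2.63 ± 1.13 (SE; limma adjusted p = 0.835), and -1.08 without the 3 mitochondria-rich libraries.

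Il1a was at 0.259, 4.73, 5.25 and 1.17 FPKM in WT PBS and 1.22, 4.03, 12.4 and 15.7 FPKM in WT cisplatin, and at 30.8, 4.66, 5.62 and 5.92 FPKM in BdP PBS against 4.89, 1.17, 6.67 and 3.12 FPKM in BdP cisplatin. The same libraries were low and high as for Cxcl2. The interaction was -2.26 ± 1.02 (SE; limma adjusted p = 0.835), and -0.74 without the 3 libraries, where the WT response was -0.35. Cxcl1 behaved alike, with -2.24 and -0.92. Tnf, with an interaction of -2.10, had one of -0.10 without the 3 libraries.

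For the whole list the median was -1.32 with all libraries and -0.13 without the 3, where 12 of 19 members were below 0. The chemokine list went from -0.56 to 0.37 and the neutrophil list, of which 9 of 14 genes were tested, from -0.76 to -0.17. All 9 neutrophil genes had a positive WT response with all libraries, and 4 had a positive one in BdP. With single libraries left out, the chemokine median was -1.06 without WT PBS 3, 0.10 without WT PBS 4 and just above 0 without BdP cisplatin 2, and the neutrophil median was -0.43 without WT PBS 4. Cd14, the lipopolysaccharide co-receptor, Acod1, which makes itaconate in activated macrophages, and Ccrl2, a chemokine-binding receptor, were also among the 108 genes, with interactions of -1.95, -2.15 and -1.68 that were -0.47, -0.84 and -0.28 without the 3 libraries. The macrophage markers as a list had a median interaction of 0.07, 0.72 without the 3 and -0.47 without WT PBS 3; their summed level was 367 to 2037 FPKM in WT PBS, 489.5 to 1071 in WT cisplatin, 883 to 2219 in BdP PBS and 531 to 1810 in BdP cisplatin. The part of macrophage content in the inflammatory values was not tested.

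Immediate early genes, transcribed within minutes of a stimulus or of tissue handling, showed the same dependence. Of 23 tested, 22 had a positive response in WT and a negative one in BdP, and 4 had an unadjusted p below 0.05: Myc, Jund, Klf6 and Nr4a1. Myc, the growth-promoting factor, was at 21.1, 30.3, 22.1 and 38.4 FPKM in WT PBS and 31.7, 35.6, 50.7 and 50.8 FPKM in WT cisplatin, and at 33.2, 26.3, 29.2 and 28.7 FPKM in BdP PBS against 19.9, 29.8, 21.5 and 20.6 FPKM in BdP cisplatin. The groups overlapped in both genotypes, by BdP cisplatin 2 alone in BdP. The interaction was -0.94 ± 0.28 (SE; limma adjusted p = 0.835), and -0.53 without the 3 libraries. The list median was -0.89 with all libraries and -0.10 without the 3, where 12 of 23 were below 0; without WT PBS 1 alone it was -0.38. Without the 3 libraries Jund was at -0.59, Klf6 at -0.42 and Nr4a1 at -0.55.

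Heat shock chaperones refold damaged proteins and are induced by Hsf1 through heat shock elements. In all, 13 of 14 had an interaction below 0, with a median of -0.31, and 13 of 14 did so without the 3 libraries, with a median of -0.21. Hspa1b, the inducible Hsp70, was at 10.2, 21.9, 48.1 and 18.9 FPKM in WT PBS and 14.9, 10.8, 44.5 and 35 FPKM in WT cisplatin. It was at 132, 117, 40.6 and 60.1 FPKM in BdP PBS and 9.38, 9.77, 38 and 31.1 FPKM in BdP cisplatin. The BdP groups did not overlap, with a response of -2.04, whereas WT had a response of 0.07. Its interaction was -2.11 ± 0.82 (SE; limma adjusted p = 0.835), and -0.999 without the 3 libraries. Reads of Hspa1b may be split with its near-identical neighbour Hspa1a.

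Hspb1, the small chaperone Hsp27, was the 1 member of this list among the 108 genes. Its level was 18.4, 4.68, 11.2 and 5.07 FPKM in WT PBS and 9.54, 4.47, 36.5 and 29.3 FPKM in WT cisplatin, and 4.2, 7.94, 3.77 and 3.01 FPKM in BdP PBS against 0.942, 0.589, 3.11 and 1.33 FPKM in BdP cisplatin. WT cisplatin 3 and 4 were the high libraries. The interaction was -1.98 ± 0.79 (SE; limma adjusted p = 0.835), and -1.25 without the 3. Its promoter is shown because it carries the heat shock element GAANNTTC, in capitals, more than once (chr5:135887669-135887918, plus strand).
Hspb1: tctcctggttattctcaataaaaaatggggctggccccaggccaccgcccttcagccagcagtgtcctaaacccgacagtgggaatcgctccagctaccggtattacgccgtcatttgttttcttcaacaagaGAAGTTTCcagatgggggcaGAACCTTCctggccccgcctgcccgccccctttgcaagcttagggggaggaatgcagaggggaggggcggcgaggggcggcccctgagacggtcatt
The element was found at any start in 6 of 10 chaperone genes with a promoter in the table, and in 6.69% of all single promoters.

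In the unfolded protein and integrated stress response list, which answers misfolded protein in the endoplasmic reticulum, 14 of 17 members were below 0, with a median of -0.27 (-0.16 without the 3). There were 4 with an unadjusted p below 0.05 in that direction and 1, Ddit4, an inhibitor of mTOR, in the other (0.70). Dnajb9, a chaperone of the reticulum, was at 7.23, 17.1, 17.7 and 18 FPKM in WT PBS and 18.9, 16.1, 24 and 31.1 FPKM in WT cisplatin, then 28.8, 21.4, 27.7 and 28.7 FPKM in BdP PBS and 15.1, 17.3, 18.7 and 18.4 FPKM in BdP cisplatin. The BdP groups did not overlap, and WT PBS 1 was the low library of WT. The interaction was -1.18 ± 0.35 (SE; limma adjusted p = 0.835), and -0.57 without the 3 libraries.

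The interferon gamma list had the opposite sign. This cytokine of T and NK cells induces GTPases such as Igtp, Tgtp1 and Iigp1 and the immunoproteasome subunit Psmb10. Of 21 members tested, 18 had an interaction above 0, against 51.0% of all genes, and 15 had a negative response in WT with a positive one in BdP, against 25.2%. The median response was -0.84 in WT and 0.13 in BdP. The median interaction was 1.06, and 1.01 without the 3 libraries, where all 21 were above 0. No member had an unadjusted p below 0.05.

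Igtp was at 22.5, 11.2, 59 and 0.73 FPKM in WT PBS and 1.85, 5.07, 6.54 and 1.98 FPKM in WT cisplatin. In BdP it was at 36.4, 24.9, 4.34 and 7.11 FPKM under PBS and 15.9, 8.26, 41.5 and 21.1 FPKM under cisplatin. WT PBS 3 was the highest and WT PBS 4 the lowest of all libraries, so the WT PBS group spanned the whole range. The interaction was 2.02 ± 1.26 (SE; limma adjusted p = 0.837). Without WT PBS 3 the list median was 0.36 and without WT PBS 4 it was 1.64. The promoter of Igtp is shown with its interferon-stimulated response element GAAANNGAAA in capitals (chr11:58199306-58199555, plus strand).
Igtp: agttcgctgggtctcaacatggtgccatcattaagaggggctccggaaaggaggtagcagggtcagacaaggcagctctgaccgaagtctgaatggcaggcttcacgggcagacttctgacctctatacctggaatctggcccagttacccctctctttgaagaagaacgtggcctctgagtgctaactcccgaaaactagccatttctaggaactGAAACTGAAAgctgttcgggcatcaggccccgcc
The element was found at any start in 11 of 18 genes of the list with a promoter in the table, and in 2.98% of all single promoters.

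Of the cytotoxic effector list, 8 of 11 members tested had an interaction above 0 and 3 below, with a median of 0.44, 0.72 without the 3 mitochondria-rich libraries and -0.26, -0.05 and -0.08 without WT PBS 3, BdP PBS 3 and BdP cisplatin 3. The protein-coding genes higher in BdP and lower in WT by at least 0.5, with at least 5 FPKM, were Prf1, Gzmf, Serpina3g and Dok5, which were chosen for that direction. Prf1, the pore-forming protein perforin, was at 2.58, 1.96, 14.6 and 0 FPKM in WT PBS and 0.321, 1.63, 2.2 and 0.527 FPKM in WT cisplatin, and at 8.85, 14.1, 0.449 and 1.98 FPKM in BdP PBS against 9.6, 2.27, 27.3 and 5.41 FPKM in BdP cisplatin. All groups overlapped, and WT PBS 3 and BdP cisplatin 3 were the high libraries. Its interaction was 1.64 ± 1.21 (SE; limma adjusted p = 0.854). Gzmf, a granzyme, had an interaction of 2.06 ± 1.08 (SE), with a limma adjusted p of 0.835. It was at 10.6, 0, 15.9 and 4.52 FPKM in BdP cisplatin, and at 0 FPKM in WT PBS 4 and BdP PBS 3. Serpina3g, an inhibitor of proteases in activated T cells, had an interaction of 1.39 ± 1.28 (SE), with a limma adjusted p of 0.883. It was 2.17 without the 3 libraries, and 0.56 to 2.03 with 1 library left out. For Serpina3g, WT PBS 3 stood at 24.1 FPKM against 0.18 to 3.45 in the other WT PBS libraries. Dok5, a signalling adaptor, had an interaction of 1.36, and 0.68 without the 3; WT PBS 1 was at 137 FPKM against 4.67 to 6.94 in the other WT PBS libraries.

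The marker lists of the cells that make interferon gamma also lay above 0 with all libraries. All 11 NK cell markers tested had an interaction above 0, with a median of 0.37 (0.85 without the 3 libraries), and 14 of 20 T cell markers did, with 0.26 (0.89 without the 3, where all 20 were above 0). Leaving out 1 library turned both medians, to -0.03 for NK cells without WT PBS 3 and -0.05 without BdP cisplatin 3, and to -0.17 for T cells without WT PBS 3 and -0.23 without BdP PBS 3. The summed NK cell level was 2.73 to 119 FPKM in WT PBS, 6.77 to 34.8 in WT cisplatin, 25.4 to 123 in BdP PBS and 24.7 to 166 in BdP cisplatin. The summed T cell level was 6.1 to 155, 10.4 to 140.5, 26.5 to 499 and 36.3 to 268 FPKM in the same order. At least 1 library was at 0 for 9 markers of either list, among them Cd4 and Ncr1. The part of lymphocyte content in the interferon gamma values was not tested.

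Metabolic lists differed by less, with narrower spread. In cholesterol synthesis 15 of 17 genes had an interaction above 0, with a median of 0.33, a WT median of -0.26 and a BdP median of 0.07. Without the 3 libraries all 17 were above 0 and the median was 0.37, and over the 16 fits that left out 1 library it ran from 0.21 to 0.41; under TPM it was -0.46, as the median of all genes was -0.65. There were 4 members with an unadjusted limma p below 0.05, against 2.43% of all genes in this direction. They were Fdft1, Cyp51, Lss and Mvd, enzymes from the mevalonate stage to the sterol ring.

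Lss, lanosterol synthase, was at 8.5, 10.1, 10.9 and 12.4 FPKM in WT PBS and 7.92, 7.93, 6.6 and 7.02 FPKM in WT cisplatin. In BdP it was at 5.93, 6.58, 9.82 and 9.28 FPKM under PBS and 9.61, 8.89, 8.12 and 9.12 FPKM under cisplatin. WT libraries were lower under cisplatin without overlap, and BdP libraries overlapped. The interaction was 0.63 ± 0.20 (SE; limma adjusted p = 0.835), and 0.62 without the 3 libraries. Fdft1, Cyp51 and Mvd had interactions of 0.56, 0.59 and 0.63, and in each of them the WT groups did not overlap, as for 3.24% of all genes. These genes were chosen by smallest interaction p, of which the WT response is a part. The choice itself therefore favours WT groups without overlap.

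**Figure D4:**
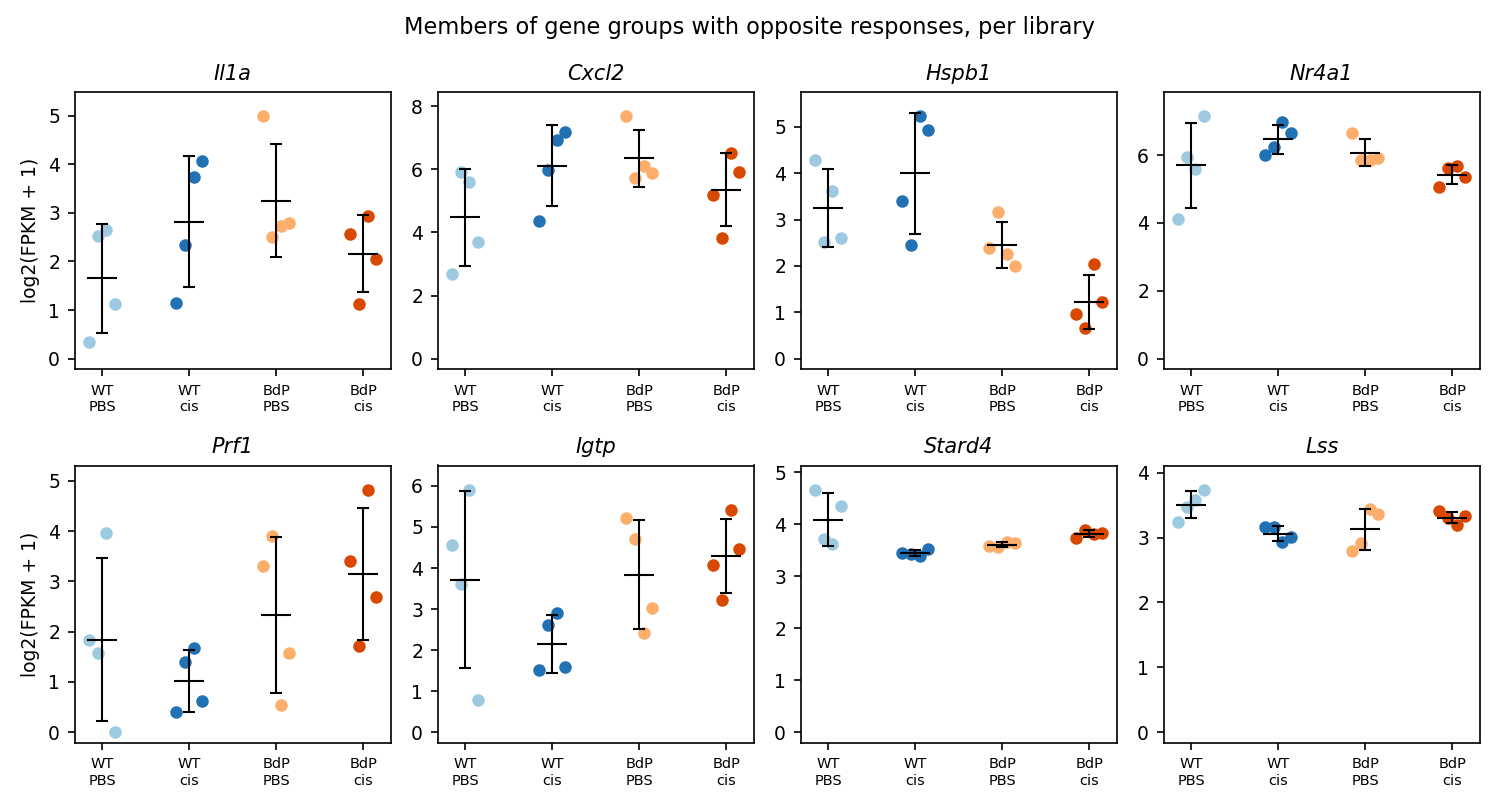
Each panel shows 1 gene of a list on log2(FPKM + 1), with 1 point per library, the group mean and a bar of 1 SD (n = 4); cis is cisplatin. Il1a and Cxcl2 overlap between PBS and cisplatin in both genotypes, Igtp and Prf1 spread widely within groups, and Lss and Stard4 are lower under cisplatin in WT without overlap.

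All 26 nuclear genes of the respiratory chain had an interaction above 0, against 51.0% of all genes, with a median of 0.35. In 23 the response was negative in WT and positive in BdP, against 25.2% of all genes. The share of mitochondrial reads differs most within the WT groups. Without the 3 libraries the median interaction was 0.13 with 24 of 26 above 0. The median WT response was 0.01 without them, against -0.17 with all libraries. Under TPM the median interaction was -0.49. Atp5a1, a subunit of ATP synthase, had an interaction of 0.77 ± 0.26 (SE; limma adjusted p = 0.835), and 0.40 without the 3. WT PBS 1 held 651 FPKM of it, against 337 to 354 in the other WT PBS libraries.

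Cell cycle genes had a median interaction of 0.20 (0.14 without the 3 libraries, -0.56 under TPM), with 23 of 32 above 0 and 5 at an unadjusted p below 0.05. Plk1, the mitotic kinase, was at 22.4, 28, 27.3 and 26.9 FPKM in WT PBS and 22.3, 28.3, 21.9 and 19.3 FPKM in WT cisplatin, and at 18, 17.2, 21.9 and 21.1 FPKM in BdP PBS against 32.1, 24.7, 24.7 and 23.3 FPKM in BdP cisplatin. The BdP groups did not overlap, and the WT groups did. The interaction was 0.59 ± 0.19 (SE; limma adjusted p = 0.835). Aurka, Rrm2 and Ccna2 had interactions of 0.56, 0.47 and 0.27, and Rrm2 one of 0.24 without the 3 libraries. The p53 targets, the best known readout of cisplatin damage, had a median interaction of -0.04, with a WT median of 0.22 and a BdP median of 0.10. Hypoxia and glycolysis genes had a median of 0.18, with 3 of 24 at an unadjusted p below 0.05.

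The TAM receptors, Gas6 and Ptpn1 had interactions smaller than their SE. The other ligand Gas6 had an interaction of -0.07 ± 0.43, Tyro3 0.18 ± 0.28, Axl 0.67 ± 0.95, Mertk 0.06 ± 0.37 and the phosphatase Ptpn1 0.06 ± 0.34 (SE), with limma adjusted p from 0.925 to 0.984. Without the 3 libraries Gas6 was at 0.14, Tyro3 at -0.15, Mertk at 0.27 and Ptpn1 at 0.25. Gas6 was at 3.42, 7.91, 3.38 and 1.6 FPKM in WT PBS and 1.13, 1.92, 1.65 and 2.97 FPKM in WT cisplatin. In BdP it was at 3.32, 3.18, 5.39 and 4.25 FPKM under PBS and 2.05, 1.24, 1.67 and 2.99 FPKM under cisplatin. Its mean was lower under cisplatin in both genotypes, by -0.69 in WT and -0.76 in BdP, without overlap in BdP. The SE of these interactions leaves differences of a size seen in other genes within reach, so the values do not show that the genotypes respond alike.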

How the data were processed

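RNA from tumours was sequenced as 16 libraries in 4 groups of 4. The deposited FPKM were made by the authors; CASAVA, HISAT2 2.0.5, featureCounts 1.5.0-p3 and GRCm38 are named in the submitters' processing notes, with no role or order. Other values in the table per the file headers are gene lengths. FPKM times gene length gave whole reads for 100% of values checked (tolerance 0.1 read) in each library, and the divisors equalled median-of-ratios size factors (ratio 1.0), so no further scaling was applied. Symbols turned to dates (27) were restored through GENCODE M21, which held 54409 identifiers.

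Group means were fitted to log2(FPKM + 1) over all 16 libraries with limma 3.58.1 (R 4.3.3), with empirical Bayes moderation and a trend, and p-values were adjusted by Benjamini-Hochberg over 12319 genes. Errors are moderated SE. No count test other than voom was run. The members and lists were chosen with earlier results of these data known. Named genes were up to 10 per direction by smallest p (protein-coding, at least 5 FPKM in the highest group), up to 10 per direction by the smaller of their opposite responses, up to 10 per direction without overlap, 6 genes of the Pros1 axis, and up to 4 members by smallest p of each list discussed. Promoters are the 250 bases before the RefSeq start (GRCm38.p6), found for 59 of 79 named genes; another 7 were not used here. Some genes that this rule selects are not reported here. The procedure was tested on simulated data. Alternatives changed the pseudocount, the filter, the scaling, the moderation, the weights, the block and the libraries.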

Additional observations from a re-analysis of the deposited data

Results flagged for a closer look

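In 4 libraries per group, a library was singled out when its gap to the nearest other library, divided by the range of the group, was above Dixon's critical value for 4 values. Chance alone gives about 1 in 20 groups. Among 324 groups, 32 met this, 24 of them outside WT PBS 1.

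WT PBS 1 stood apart for G0s2 (4.11 FPKM, others 1.75 to 2.1), Dok5 (137 FPKM, others 4.67 to 6.94), Sft2d2 (42.7 FPKM, others 15.4 to 19), Vars2 (2.44 FPKM, others 4.43 to 4.61), Jund (21.8 FPKM, others 50.1 to 55.1), Dnajb9 (7.23 FPKM, others 17.1 to 18) and Atp5a1 (651 FPKM, others 337 to 354). WT cisplatin 1 stood apart for Ddah2 (17.6 FPKM, others 12 to 12.8) and Slc40a1 (3.27 FPKM, others 2 to 2.15). WT PBS 4 stood apart for Phlda1 (91 FPKM, others 57.9 to 62.8). WT PBS 3 stood apart for Serpina3g (24.1 FPKM, others 0.18 to 3.45), Acod1 (17.1 FPKM, others 0.586 to 2.98) and Igkc (32.3 FPKM, others 0.962 to 4.59). BdP PBS 1 stood apart for Il1a (30.8 FPKM, others 4.66 to 5.92), Cxcl1 (33.5 FPKM, others 5.11 to 7.54), Cxcl2 (205 FPKM, others 52.6 to 68.3), Mertk (3.79 FPKM, others 2.26 to 2.5), Nfkbiz (38 FPKM, others 11.1 to 13.3), Nr4a1 (99.7 FPKM, others 56.9 to 58.9) and Ppp1r15a (69.6 FPKM, others 37.5 to 42.2). WT cisplatin 3 stood apart for Fcer2a (6.73 FPKM, others 0.0932 to 0.523) and Jchain (3.55 FPKM, others 0.178 to 0.44). BdP PBS 4 stood apart for Pros1 (1.24 FPKM, others 1.58 to 1.61). WT cisplatin 2 stood apart for Tyro3 (3.00 FPKM, others 1.92 to 2.07). BdP cisplatin 1 stood apart for Plk1 (32.1 FPKM, others 23.3 to 24.7) and Atp5a1 (475 FPKM, others 422 to 427). BdP cisplatin 2 stood apart for Myc (29.8 FPKM, others 19.9 to 21.5). BdP cisplatin 3 stood apart for Dnaja1 (24.6 FPKM, others 19.2 to 19.7). BdP PBS 2 stood apart for Dnajb9 (21.4 FPKM, others 27.7 to 28.8). In WT PBS 1 the share of mitochondrial reads was 76.9%, against 2.03% to 3.74% in the other libraries of its group. In WT PBS 2 the share of haemoglobin reads was 15.5%, against 0.778% to 1.92% in the other libraries of its group. In BdP cisplatin 3 the share of haemoglobin reads was 6.46%, against 0.002% to 0.152% in the other libraries of its group.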

How the results depend on the processing

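The count of called genes (0) was 2 with a pseudocount of 5 (Lamb1, Igha), 1 with voom (Slc40a1), 1 with no trend (Igha), 1 at an adjusted p below 0.1, and 0 to 1 when 1 library was left out: 1 without WT PBS 4 (1810012K08Rik) and 1 without BdP cisplatin 4 (Igha). The 691 genes at an unadjusted p below 0.05 were 1166 with no filter, 426 at 5 FPKM in 4 libraries (fewer genes tested), 187 under TPM, 1192 with library weights, 289 without the 3 mitochondria-rich libraries and 460 (without WT cisplatin 3) to 1103 (without WT PBS 4) with 1 library left out. The 123 opposite genes (108 lower in BdP, 15 higher) were 333 (274, 59) with a pseudocount of 0.1, 24 (22, 2) with one of 5, 75 (69, 6) at 5 FPKM, 335 (319, 16) under TPM, 325 (306) under TPM without mitochondrially encoded genes, 266 (201, 65) with voom, 34 (18, 16) without the 3 libraries, 565 (411, 154) at 0.25 and 10 (9, 1) at 1. Library weights gave 57 lower and 26 higher. With 1 library left out the total was 93 to 180, the lower count 63 (without BdP cisplatin 1) to 160 and the higher count 9 (without BdP cisplatin 3) to 47 (without BdP PBS 2), with 24 without WT PBS 4, 33 without BdP PBS 1, 30 without BdP cisplatin 1 and 37 without BdP cisplatin 2. The cause was not tested.

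The median interaction of all genes was -0.65 under TPM and -0.45 under TPM over genes not encoded in mitochondria. Under TPM, the sign reversed for Commd10 -0.26, Me2 -0.066, Mis12 -0.18, Tmem97 -0.18, Cmas -0.18, Ppa1 -0.28, Hsd17b12 -0.41, Tpgs2 -0.010, Sft2d2 -0.14, Tyro3 -0.46, Mertk -0.42, Ptpn1 -0.65, Plk1 -0.19, Aurka -0.21, Rrm2 -0.36, Ccna2 -0.52, Ddit4 -0.13, Atp5a1 -0.083, Ndufs3 -0.25, Ndufv1 -0.46, Uqcrc1 -0.39, Fdft1 -0.24, Cyp51 -0.23, Lss -0.0496, Mvd -0.18, Mlana -0.28 and Mc1r -0.54. Under TPM over genes not encoded in mitochondria, added after seeing the data, the sign reversed for Hsd17b12 -0.073, Tyro3 -0.24, Mertk -0.30, Ptpn1 -0.42, Rrm2 -0.030, Ccna2 -0.22, Ndufv1 -0.13, Uqcrc1 -0.070 and Mc1r -0.23. With library weights, the sign reversed for Gas6 0.51. Without the 3 mitochondria-rich libraries, the sign reversed for Gas6 0.14 and Tyro3 -0.15. Leaving out 1 library gave ranges that crossed 0 in the Pros1 axis: -0.39 to 0.20 for Gas6, -0.027 to 0.28 for Tyro3, -0.11 to 0.34 for Mertk, -0.19 to 0.21 for Ptpn1.

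With the replicate number as a block, 0 genes were called and 749 had an unadjusted limma p below 0.05. Deviations from the group mean were correlated between libraries of different groups. Same-numbered libraries had correlations from -0.613 to 0.415, and differently numbered ones from -0.542 to 0.569. The labels do not say what the numbers mark, and these ranges cannot exclude a shared batch. The list medians for keratinocytes, skeletal muscle and adipocytes, with 1 member tested each, could not be computed at 5 FPKM in 4 libraries. WT PBS 1, with 2322202 reads outside mitochondrial genes, limits low genes in the WT response.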
